A study of Homo sapiens with 6 samples.

Results

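Adrenoceptor and dopamine receptor genes were examined in LA1-55n, a human neuroblastoma cell line, on Affymetrix Human Gene 2.0 ST arrays. Probe sets were chosen by gene symbol for the GABA, glutamate, glycine, acetylcholine, serotonin, dopamine and adrenergic receptor families. Antisense and pseudogene symbols were left out, and a gene with several probe sets was represented by the one with the highest mean level. The rule found 13 genes among the 14779 genes with a named probe set. These were 8 adrenoceptor genes and 5 dopamine receptor genes, so the name "neurotransmitter receptors" is too wide and they are called catecholamine receptor genes here. In the reference gene table the same symbols cover 101 protein-coding genes. The other families were not analysed here.

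Cells called shGLDC99 carried a doxycycline-inducible hairpin against glycine decarboxylase, and the control cells, called shGFP, an inducible hairpin against GFP, with 3 arrays in each group. Both groups were grown with 0.5 µg/ml doxycycline for 7 days. A single hairpin represents GLDC loss and no uninduced culture was among the samples, so effects of this hairpin sequence and of lower GLDC cannot be told apart. The sources used here do not say whether each population was 1 clone, and beyond "independent" they do not say how the samples were separated, so the p-values cover the spread among these 6 samples alone, which may be technical.

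Adrenoceptors bind noradrenaline and adrenaline, and dopamine receptors bind dopamine; all are receptors that signal through G proteins. The beta adrenoceptors and the D1 and D5 dopamine receptors couple to Gs, which stimulates adenylyl cyclase. The alpha-2 adrenoceptors and the D2, D3 and D4 dopamine receptors couple to Gi, which inhibits it, and the alpha-1 adrenoceptors couple to Gq, which activates phospholipase C. Neuroblastoma arises from the sympathetic lineage, whose cells make catecholamines, and alpha-2 and D2-type receptors are known as autoreceptors of such cells.

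Of the 13 catecholamine receptor genes, 1 rose in shGLDC99 cells, 0 fell and 12 were not past the threshold. The gene that rose was ADRB1, which encodes the beta-1 adrenoceptor, by 0.43 on the log2 scale. The words rose, fell and changed are kept for genes with a limma adjusted p under 0.05, adjusted over all 14779 genes. By that measure 8.52% of all genes changed, and 3.72% of all genes rose, so the receptor count was near the background. The groups of arrays did not overlap for 1 of the 13 genes, against 30.8% of all genes and 46.2% of genes with a mean level of 5 or more. At an unadjusted p under 0.05 the receptor count was also 1, against 24.4% of all genes. Of the 13 receptor genes, 9 had a mean level below 5, where such counts were lower. Among all 7192 genes at that level, the groups did not overlap for 1051, and 946 had an unadjusted limma p under 0.05. The median difference was -0.01 over the 13 receptor genes and -0.01 over all genes. ADRA2A and ADRA2C, a pair of alpha-2 adrenoceptor genes, differed by 0.42 and -0.38 with intervals that included 0.

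The mean levels of the 13 genes over the 6 arrays lay between 3.16 and 5.37. No detection call was used, so no receptor gene is shown to exceed background, and the size of each difference is uncertain for that reason. A mean of 5 was set as the limit for dim genes. Each of the 13 genes had 1 named probe set. ADRB1 lay just inside the limit of 5 at 5.06 and ADRB3 just outside at 4.50. The shGFP arrays of ADRB1 all lay below 5 (4.72, 4.98 and 4.83). Its mean thus met the limit only through the shGLDC99 arrays, where it was higher. Genes tested with a mean below 5 changed in 2.79% of cases and those with a mean of 5 or more in 13.9%. Probe sets differ in their response, so levels are compared between groups and not between genes.

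The hairpin's target and the cell type were checked first. GLDC, the decarboxylase of the glycine cleavage system, had levels of 5.98, 5.65 and 5.93 in shGLDC99 cells, against 7.85, 7.90 and 7.81 in shGFP cells. The difference was -2.00 ± 0.10 (SE; limma adjusted p = 0.00101). Of the 15 measured markers of the sympathetic list (21 listed), 12 had means of 5 or more, and STMN2 (2.87), HAND1 (3.86) and DBH (4.52) had means below 5. GATA3 averaged 9.17 and 9.65 and HAND2 8.06 and 7.98 in shGLDC99 and shGFP cells. Of these 15 markers 4 rose and 3 fell, beside 8.52% of all genes that changed, and without any 1 of the 6 arrays 1 or 2 rose and 1 to 3 fell. The rises were those of STMN4 (1.05), CHGB (0.41), GAP43 (0.41) and INSM1 (0.26). The falls were those of ISL1 (-1.09), GATA2 (-0.56) and GATA3 (-0.48). The Schwann and glial marker SOX10 averaged 4.66 and 4.68 in shGLDC99 and shGFP cells, and all 7 measured markers of that list had means below 5. So did 6 of 7 endothelial, 4 of 5 leukocyte and 2 of 4 fibroblast markers. The mean over the fibroblast list was 4.40 to 4.49 on the shGLDC99 arrays and 4.28 to 4.35 on the shGFP arrays. For Schwann and glial markers it was 3.70 to 3.98 and 3.72 to 3.93, for endothelium 3.84 to 3.95 and 3.87 to 3.96, and for leukocytes 3.54 to 3.82 and 3.66 to 3.71. LUM, a fibroblast proteoglycan, was the 1 gene of these 4 lists that changed, with a rise of 0.52 to a level of 4.0 in shGLDC99 cells, against 3.48 in shGFP cells. The part of other cells in the receptor values was not tested, and in bulk RNA fewer expressing cells and less RNA per cell cannot be told apart.

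The sequence upstream of the start site is shown for ADRB1, because it was the receptor gene that changed, and for ADRA2A and ADRA2C, because these relatives had differences of opposite sign. The 3 windows are the 250 bases before the start site from RefSeq, build GRCh38.p14. ADRB1 is at chr10:114043616-114043865, ADRA2A at chr10:111076779-111077028 and ADRA2C at chr4:3766135-3766384, all on the plus strand. Capitals mark matches, on either strand, to the TATA motif TATAAA, the GC box GGGCGG, the cAMP response element TGACGTCA and its core TGACG, which is part of it.
ADRB1: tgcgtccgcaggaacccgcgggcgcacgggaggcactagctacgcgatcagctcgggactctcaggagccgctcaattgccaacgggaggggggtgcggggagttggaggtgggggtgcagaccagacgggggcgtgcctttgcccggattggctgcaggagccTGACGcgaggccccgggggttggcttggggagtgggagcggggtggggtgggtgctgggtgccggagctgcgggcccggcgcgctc
ADRA2A: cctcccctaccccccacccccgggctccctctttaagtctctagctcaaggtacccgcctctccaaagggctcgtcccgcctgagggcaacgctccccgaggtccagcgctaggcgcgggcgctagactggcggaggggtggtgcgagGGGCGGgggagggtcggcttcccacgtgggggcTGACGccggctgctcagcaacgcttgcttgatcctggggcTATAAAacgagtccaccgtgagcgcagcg
ADRA2C: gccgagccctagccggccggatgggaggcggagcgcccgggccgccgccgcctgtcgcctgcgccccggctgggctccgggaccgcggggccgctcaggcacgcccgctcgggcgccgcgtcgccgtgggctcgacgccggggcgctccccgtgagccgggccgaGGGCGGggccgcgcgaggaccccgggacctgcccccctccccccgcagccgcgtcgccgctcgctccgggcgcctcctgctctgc

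Upstream of ADRB1 there was 1 match to TGACG and 0 to the other motifs. ADRA2A had 1 match each to the TATA motif, the GC box and TGACG, and ADRA2C had 1 match, to the GC box. None of the 3 windows held the full cAMP response element. Among the 27305 genes with an entry in the table, windows of the same length held the TATA motif in 11.1%, the GC box in 42.3%, TGACG in 21.7% and the full cAMP response element in 1.8%. G and C made up 72.8% of the ADRB1 window, 68.8% of the ADRA2A window and 84.8% of the ADRA2C window, against a median of 58.0% over all windows. A match describes the letters and does not show binding. Of the 13 receptor genes, 8 had an entry in the table.

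Among the Gs-coupled receptors, ADRB1 gave the clearest difference. This receptor mediates the stimulation of the heart by noradrenaline. Its levels were 5.25, 5.22 and 5.35 in shGLDC99 arrays a, b and c, against 4.72, 4.98 and 4.83 in shGFP arrays a, b and c. Each shGLDC99 array lay above each shGFP array, and all shGFP arrays lay below 5. The means were 5.27 ± 0.065 in shGLDC99 cells and 4.84 ± 0.134 in shGFP cells (SD, n = 3 each). The log2 difference was 0.43 ± 0.087 (SE), or 1.35-fold higher, with a 95% interval of 0.22 to 0.64 (limma adjusted p = 0.0317). Permuting the 6 arrays gave an exact two-sided p of 0.1, which is the lowest possible with 3 arrays per group. ADRB1 was past the threshold without shGFP array b (limma adjusted p = 0.0436), but not without shGFP array a (0.0849) or c (0.0974), nor without shGLDC99 array a (0.0872), b (0.0784) or c (0.0998). Adjusted over all 31135 probe sets, its p was 0.0508. The difference itself stayed between 0.37 and 0.50 when any 1 array was left out.

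The other 3 Gs-coupled receptor genes had means below 5, and none was past the threshold. ADRB3, the beta-3 adrenoceptor of adipose tissue, averaged 4.47 ± 0.206 in shGLDC99 cells and 4.53 ± 0.151 in shGFP cells. DRD1, the D1 dopamine receptor, averaged 3.58 ± 0.458 in shGLDC99 cells and 3.57 ± 0.125 in shGFP cells (SD, n = 3 each). Its shGLDC99 arrays were spread widely, with array a at 3.999, b at 3.65 and c at 3.09, and they enclosed all 3 shGFP arrays (3.63, 3.42 and 3.65). DRD5, the D5 dopamine receptor, averaged 3.84 ± 0.225 and 3.89 ± 0.0579 in shGLDC99 and shGFP cells. The genome holds near-identical DRD5 pseudogenes, which its probe set may read as well. The 95% intervals of the differences were -0.36 to 0.24 for ADRB3, -0.51 to 0.53 for DRD1 and -0.33 to 0.23 for DRD5.

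**Figure D1:**
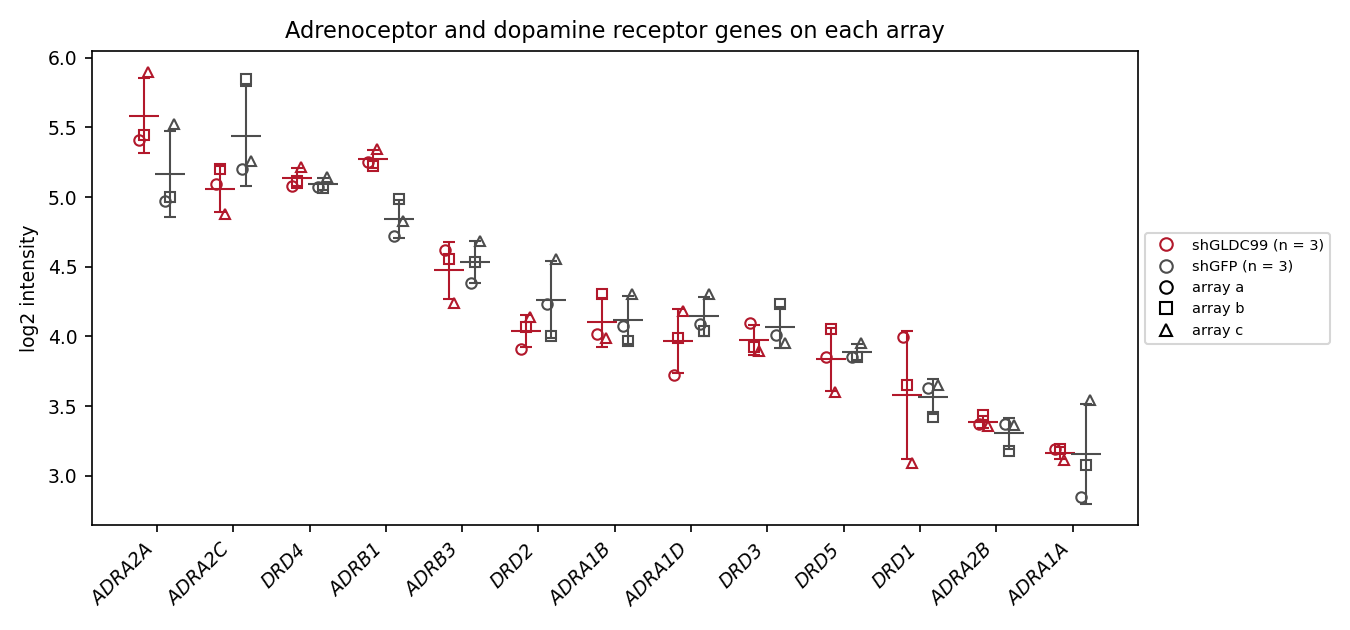
Log2 intensity of the 13 catecholamine receptor genes on each array, with shGLDC99 in red to the left of shGFP in grey. Symbols mark arrays a, b and c, horizontal lines the means and bars the SD (n = 3). ADRB1 is the gene whose groups do not overlap.

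The 6 Gi-coupled receptor genes included both remaining differences above 0.3 in size. ADRA2A encodes the alpha-2A adrenoceptor, the main brake on noradrenaline release. Its levels were 5.41, 5.45 and 5.89 in shGLDC99 arrays a, b and c, against 4.97, 5.0 and 5.52 in shGFP arrays a, b and c. In both groups array c was the highest, and shGFP array c lay above shGLDC99 arrays a and b, so the groups overlapped. The means were 5.58 ± 0.270 in shGLDC99 cells and 5.17 ± 0.312 in shGFP cells (SD, n = 3 each). The difference of 0.42 ± 0.19 (SE) was close in size to that of ADRB1, with a larger error and a 95% interval of -0.04 to 0.88 (limma adjusted p = 0.244). It was 0.60 without shGFP array c and 0.26 without shGLDC99 array c, past the threshold in neither case (limma adjusted p = 0.113 and 0.480).

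ADRA2C, the alpha-2C adrenoceptor, which also restrains noradrenaline release, had levels of 5.09, 5.20 and 4.88 in shGLDC99 arrays a, b and c, against 5.20, 5.85 and 5.26 in shGFP arrays a, b and c. Here shGFP array b stood above the others, while shGLDC99 array b and shGFP array a were nearly equal. The group means were 5.06 ± 0.165 in shGLDC99 cells and 5.44 ± 0.357 in shGFP cells (SD, n = 3 each). The difference was -0.38 ± 0.18 (SE), with a 95% interval of -0.82 to 0.06 (limma adjusted p = 0.268). Without shGFP array b it was -0.17 (limma adjusted p = 0.449). The opposite signs of ADRA2A and ADRA2C were seen after the values were known and were not tested against each other.

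DRD4, the D4 dopamine receptor, showed a narrow spread. It gave 5.08, 5.12 and 5.22 in shGLDC99 arrays a, b and c, against 5.07, 5.06 and 5.15 in shGFP arrays a, b and c. The ranges of the groups overlapped. Its difference was 0.04 ± 0.068 (SE; limma adjusted p = 0.756), and the 95% interval of -0.12 to 0.20 bounds it more tightly than that of any other receptor gene measured here.

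The remaining Gi-coupled receptor genes had means below 5. DRD2, the D2 autoreceptor and the target of antipsychotic drugs, had 3.91, 4.07 and 4.14 in shGLDC99 arrays a, b and c, against 4.23, 4.002 and 4.56 in shGFP arrays a, b and c. With a difference of -0.22 and a 95% interval of -0.57 to 0.12, it was the furthest from 0 among the 9 genes with means below 5 (limma adjusted p = 0.414). DRD3, the D3 dopamine receptor, averaged 3.97 ± 0.108 in shGLDC99 cells and 4.07 ± 0.148 in shGFP cells (SD, n = 3 each), a difference of -0.10. ADRA2B, the alpha-2B adrenoceptor of vascular tissue, averaged 3.39 ± 0.0436 in shGLDC99 cells and 3.31 ± 0.111 in shGFP cells, a difference of 0.08. Over the 6 Gi-coupled genes, 3 were higher and 3 lower in shGLDC99 cells, with 0 past the threshold.

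The 3 Gq-coupled alpha-1 adrenoceptor genes, which mediate contraction of smooth muscle, all had means below 5. ADRA1B averaged 4.10 ± 0.175 in shGLDC99 cells and 4.12 ± 0.172 in shGFP cells, and ADRA1D 3.96 ± 0.229 and 4.14 ± 0.142 in the same order (SD, n = 3 each). Levels of ADRA1A averaged 3.16 ± 0.0443 in shGLDC99 cells and 3.16 ± 0.357 in shGFP cells. The larger spread came from shGFP arrays a and c, at 2.85 and 3.55, which lay below and above all shGLDC99 arrays. The differences were -0.01 for ADRA1B, -0.18 for ADRA1D and 0.01 for ADRA1A, and their limma adjusted p-values lay between 0.479 and 0.983. Across the 9 receptor genes with means below 5, 3 were higher and 6 lower in shGLDC99 cells, 0 were past the threshold in the limma test and 0 had an unadjusted p under 0.05.

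**Figure D2:**
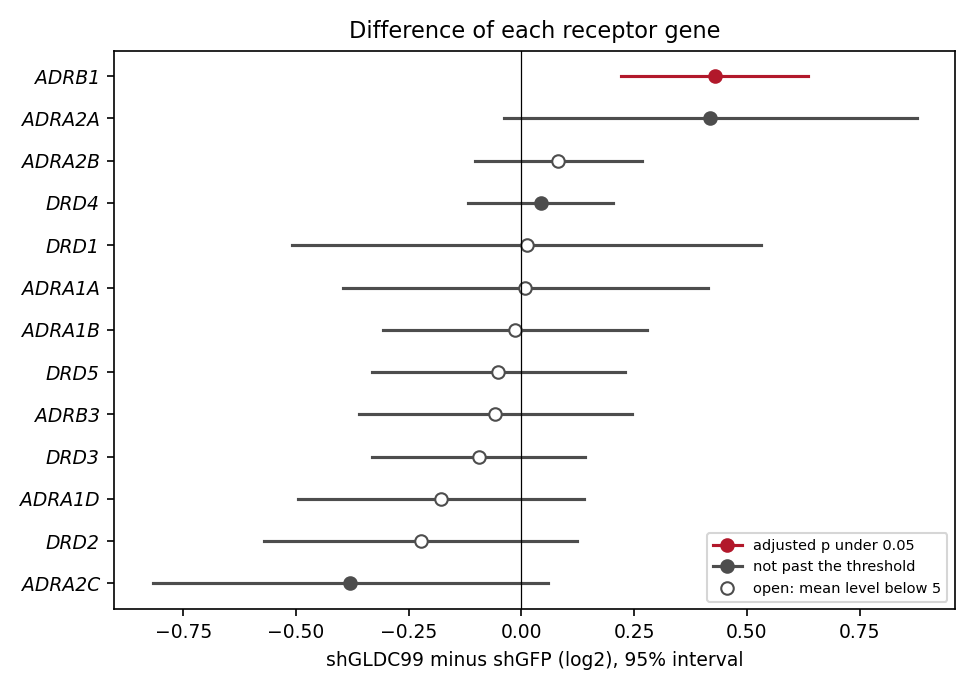
Difference of each receptor gene, shGLDC99 minus shGFP on the log2 scale, with the 95% interval of the limma model (3 arrays per group). The interval of ADRB1, 0.22 to 0.64, is the only one of the 13 that leaves out 0; open circles are genes with a mean below 5.

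The intervals limit what these arrays could show. Over all 13 genes they reached from -0.82 (ADRA2C) to 0.88 (ADRA2A). The median SE was 0.127 on the log2 scale over the receptor genes and 0.0951 over all genes. With a mean below 5 it was 0.127 over 9 receptor genes and 0.123 over all genes. With a mean of 5 or more it was 0.135 over 4 receptor genes and 0.0769 over all genes. The median absolute difference was 0.08 over the receptor genes, against 0.13 over all genes. It was 0.06 over the 9 receptor genes with a mean below 5, against 0.12 over all genes at that level. Over the 4 with a mean of 5 or more it was 0.40, against 0.14 over all genes at that level. Of the 8 adrenoceptor genes, 4 were higher and 4 lower; of the 5 dopamine receptor genes, 2 were higher and 3 lower. A p that misses the threshold does not show that a gene had equal levels in both groups.

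**Figure D3:**
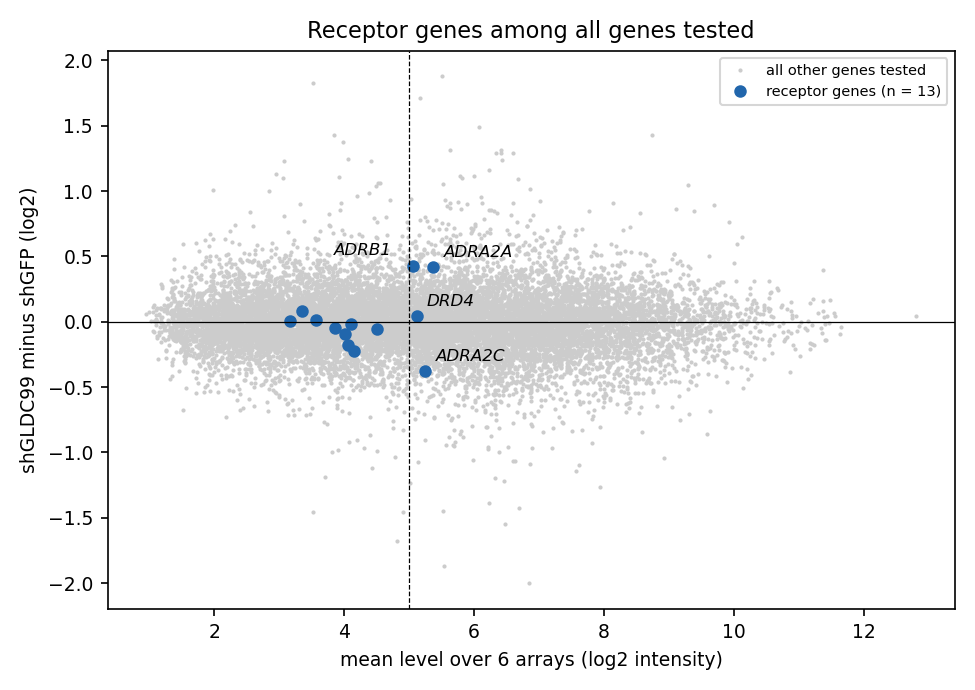
Difference (shGLDC99 minus shGFP, log2) against the mean level over 6 arrays for all genes tested (grey) and the 13 receptor genes (blue), with the named genes above the dashed limit of 5. The receptor genes lie in the left part of the cloud, between mean levels of 3.16 and 5.37.

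Enzymes that make and degrade transmitters, both catecholamines and others such as GABA, were measured in part. In the list of transmitter synthesis, uptake and degradation, 2 of 16 measured genes rose and 0 fell, with a median of 0.07. MAOB, a monoamine oxidase that degrades dopamine, gave 5.11, 5.19 and 5.36 in shGLDC99 arrays, against 4.71, 4.69 and 4.80 in shGFP arrays. It rose by 0.49 (limma adjusted p = 0.0207), and its mean over the 6 arrays was 4.98, below 5. ABAT, which degrades GABA and not a ligand of the catecholamine receptors, rose by 0.42 (limma adjusted p = 0.0112). TH, the rate-limiting enzyme of catecholamine synthesis, averaged 5.37 ± 0.115 in shGLDC99 cells and 5.11 ± 0.144 in shGFP cells (SD, n = 3 each; limma adjusted p = 0.169). DDC, the next enzyme, differed by -0.01, DBH, which makes noradrenaline, by 0.13, and MAOA by 0.11, none past the threshold. Leaving out any 1 array left 1 or 2 rises and 0 or 1 fall.

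Of 22 measured genes of G proteins, their regulators and receptor kinases, 1 rose and 1 fell, with a median of -0.07. RGS8, which speeds the inactivation of Gi and Go proteins, had 5.12, 4.68 and 4.83 in shGLDC99 arrays, against 4.18, 3.60 and 3.90 in shGFP arrays. It rose by 0.98 ± 0.17 (SE), or 1.98-fold (limma adjusted p = 0.0209). Its mean over the 6 arrays was 4.38, and shGLDC99 array a was the only array above 5. GPSM2, which binds Gi alpha subunits and orients the mitotic spindle, fell by 0.54 (limma adjusted p = 0.00804). Without 1 of the 6 arrays, 0 or 1 rose and 1 fell. The Gi, Gq and beta-gamma subunit genes and the arrestins were not analysed here; GNAS, which encodes the Gs alpha subunit, was not past the threshold.

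Proteins around neurotransmitter receptors were measured, while the ligand-gated channels themselves were not analysed here. Of 29 auxiliary subunits, chaperones and trafficking proteins 2 rose and 2 fell, with a median of 0.07. FRRS1L, an assembly factor of AMPA receptors, rose by 0.61 and CNIH4, a cornichon of the early secretory pathway, by 0.30. LYPD6, a modulator of nicotinic receptors, fell by 0.76 to a level of 4.38 in shGLDC99 cells, against 5.14 in shGFP cells. Its mean over the 6 arrays was 4.76, below 5. NETO1, an auxiliary subunit of kainate receptors, fell by 0.46. Of 19 scaffold and clustering proteins 2 fell and 0 rose, with a median of -0.06. These were GRIP1, a PDZ scaffold of AMPA receptors (-0.35), and LRP4, the agrin receptor of the neuromuscular junction (-0.41). Limma adjusted p-values of these 6 genes lay between 0.00822 and 0.0431. Without 1 of the 6 arrays, 0 or 1 auxiliary gene rose and 1 or 2 fell, and 0 or 1 scaffold gene fell. These counts describe the 4 lists, beside 8.52% of all genes that changed and a median of -0.01 over all genes, and the lists were not tested.

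**Figure D4:**
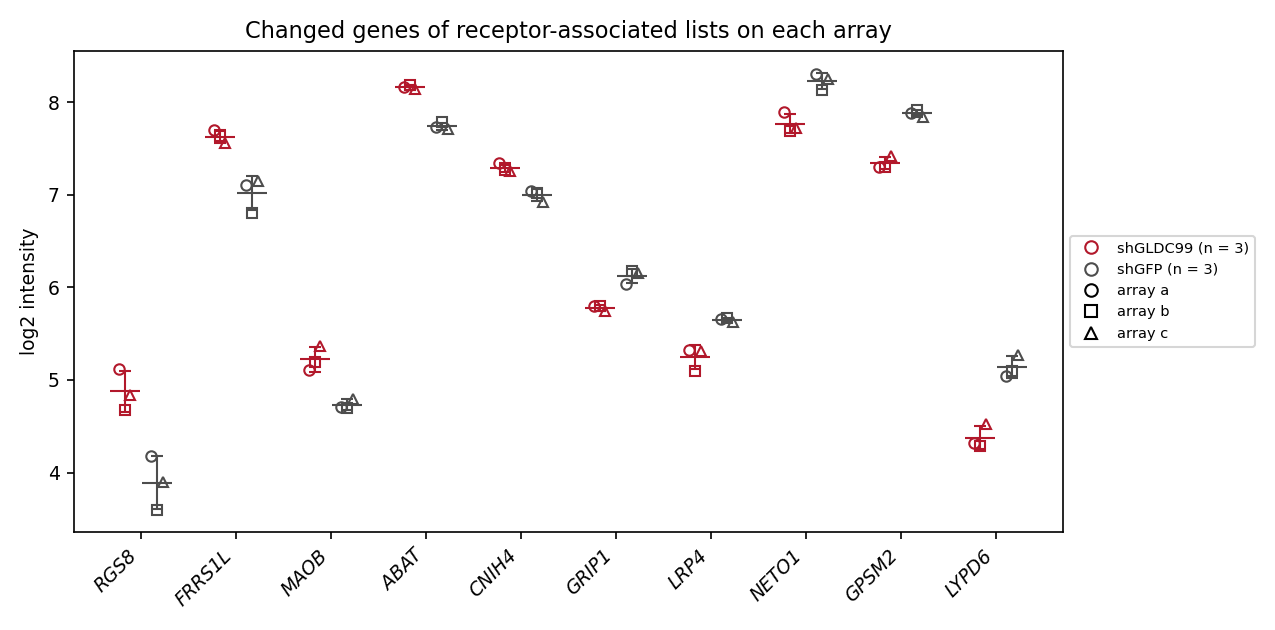
Log2 intensity on each array of the 10 changed genes of the 4 related lists, ordered from the largest rise (RGS8, 0.98) to the largest fall (LYPD6, -0.76), with shGLDC99 in red to the left of shGFP in grey. Symbols mark arrays a, b and c, lines the means and bars the SD (n = 3); the groups do not overlap for any gene shown.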

How the data were processed

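RNA of 3 shGLDC99 and 3 shGFP samples was measured on arrays. The deposited values, 1 per probe set and array, were read as log2 intensity: no log base is stated, and the maximum of 13.28 is above 11.09, the natural log of the largest 16-bit intensity. Partek was used by the authors, per the submitters' processing notes; version, background correction and normalization: not given in the sources used here. The 6 arrays had medians of 4.28 to 4.33, so the values were used as deposited, and their small number limits the precision.

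Of 31135 probe sets, 15098 had 1 gene symbol, 0 had several and 16037 had none in the platform annotation. Every named probe set matched RefSeq by Entrez ID. limma 3.58.1 (R 4.3.3; lmFit, eBayes, no covariates) gave the two-sided test of shGLDC99 minus shGFP, with Benjamini-Hochberg adjustment over 14779 genes and no filter. The script was tested on simulated data, in which 200 of 14779 genes were changed. It recovered 48% of the genes with an effect of 0.5 and 78% of those with an effect of 1. Of its 133 calls, 7 were on unchanged genes. Data were read with data.table (version 1.17.8), and figures used Python 3.11.15, matplotlib 3.10.9, pandas 2.3.3 and numpy 2.4.6.

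The receptor genes, the 4 related lists and the markers were chosen with earlier results of these data known. The naming rule took receptor genes with a mean of at least 5, and up to 6 changed genes per related list; the dimmer receptor genes are named as well to account for every member. TH, DDC, DBH, MAOA and GNAS were named after their values were seen, as were the marker genes. The symbols GRM5-AS1 (antisense) and HTR7P1 (pseudogene) were excluded.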

Additional observations from a re-analysis of the deposited data

How the results depend on the processing

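The alternatives were quantile normalization again, median centring, leaving out the dimmest 40% of genes (which kept 5 receptor genes), averaging probe sets, the replicate letter as a block, leaving out each array, array quality weights, a prior variance with an intensity trend, and all probe sets. GLDC kept its fall in all 14 (-2.07 to -1.90). Changed genes numbered 1259, 2221 without the dimmest 40%, 2438 with the trend, and 461 to 546 without 1 array. The receptor count of 1 was 0 over all probe sets and 0 to 1 without 1 array; it was 1 under the other normalizations, the dim filter, probe set averaging, the trend and the weights. ADRB1 was higher in all 14 settings (0.37 to 0.50; adjusted p = 0.00886 to 0.0998) and past the threshold in 7 of them.

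Arrays of the same letter did not deviate together (correlations of -0.01, 0.02 and -0.00106 over all genes), so the letters were not taken as pairs. With the replicate block, 229 genes and 0 receptor genes changed. In that limma fit ADRB1 had an adjusted p of 0.0908 and ADRA2A a lower one of 0.0637, the reverse of their order without the block.

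The sign turned for 5 receptor genes with differences within 0.06 of 0, none past the threshold; DRD4, also within that range, kept its sign. ADRA1A was -0.0028 with array weights and -0.15 to 0.20 without 1 array. Without 1 array the ranges were -0.11 to 0.080 for ADRA1B, -0.13 to 0.060 for ADRB3, -0.20 to 0.26 for DRD1 and -0.16 to 0.065 for DRD5; the cause was not tested. ADRA1D, ADRA2A, ADRA2B, ADRA2C, DRD2, DRD3 and DRD4 kept their sign and stayed short of the threshold in every setting that held them. No measure of background was used, which limits every receptor value.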

Other observations

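The excluded symbols also had means below 5, at 1.46 for GRM5-AS1 and 4.02 for HTR7P1. The lowest mean of any gene was 0.95, so GRM5-AS1 lay near the floor of the arrays. GRM5-AS1, a transcript antisense to the glutamate receptor gene GRM5, had 1.16, 1.35 and 1.30 in shGLDC99 arrays a, b and c, against 1.64, 1.75 and 1.55 in shGFP arrays a, b and c, and fell by 0.38 (limma adjusted p = 0.0431). The serotonin receptor pseudogene HTR7P1 differed by -0.15 (limma adjusted p = 0.592).

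ADRB1 and ADRA2A lie on the same chromosome. Of the 6 measured protein-coding genes nearest to ADRB1, 3 on each side in the RefSeq order, 0 rose and 1, the DNA repair nuclease gene DCLRE1A, fell (-0.35; limma adjusted p = 0.0174). Of the 6 nearest to ADRA2A, 0 changed, with differences between -0.06 (ACSL5) and 0.24 (BBIP1). Over all genes 8.52% changed, and sets of 6 genes are too small to be told apart from that share.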
